A study of Mus musculus with 18 samples.

Results

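The expression of 10 genes that mark macrophages resident in tissues was followed across gonadal white adipose tissue, hypothalamus and liver of young mice. The genes were Csf1r, Cx3cr1, P2ry12, Tmem119, Clec4f, Vsig4, Cd5l, Timd4, Mrc1 and Lyve1. They were chosen by name, with earlier results of these data known. All 10 were found among the 23904 gene names that the transcript tables of all 3 tissues share. All 10 also passed the filter on low values, a mean of at least 0.1 FPKM over the 18 columns of values, which left 15840 genes. FPKM, the number of sequenced fragments scaled to transcript length and to all mapped fragments, is a level per length, so genes can be set side by side within a tissue.

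RNA was sequenced after poly-A selection from male C57BL/6 mice aged 3 weeks. Their dams were gavaged daily from 1 to 20 days post-conception, either with bisphenol A (BPA, a building block of plastics with estrogenic activity) at 5 mg/kg/day in corn oil or with corn oil alone. The labels list 18 samples, 3 of corn oil offspring and 3 of BPA offspring for each tissue, and the offspring came from 3 vehicle litters and 4 BPA litters. All mice shared the strain, the sex, the age and gavaged dams, and breeders were kept on the diet 5V01, which is low in isoflavones. The headings of the 6 columns of a tissue name the tissue and a number that occurs in no label. The columns were therefore compared between tissues only, no comparison of BPA with corn oil was made, and the spread within a tissue holds both treatments. Whether each column is a separate animal, and whether a number that recurs in several tissues marks the same animal, is not given, so p-values measure the spread between these columns.

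Tissue macrophages are long-lived cells that clear debris and dying cells, and in each organ they take on a program of their own. Signalling through CSF1R, the receptor for colony stimulating factor 1 and interleukin 34, keeps them alive in mice. Microglia, the macrophages of the brain parenchyma, are recognised by the fractalkine receptor Cx3cr1, the purinergic receptor P2ry12 and the membrane protein Tmem119. Kupffer cells, the macrophages of the liver sinusoids, are recognised in mice by the C-type lectin Clec4f, the complement receptor Vsig4, the secreted scavenger protein Cd5l and the phosphatidylserine receptor Timd4. The mannose receptor Mrc1 and the hyaluronan receptor Lyve1 mark macrophages along vessels and in connective tissue. Both are also made by endothelium, Mrc1 and Lyve1 by that of liver sinusoids and Lyve1 by that of lymphatic vessels.

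The 3 tissues were as labelled by their own marker genes. The summed FPKM of 5 adipocyte markers had a median of 4520 in adipose tissue, that of 6 neuron markers a median of 1513 in hypothalamus, and that of 5 hepatocyte markers a median of 47731 in liver. Elsewhere adipocyte markers summed to 111 to 262 FPKM in liver and at most 0.464 FPKM in hypothalamus. The liver sum was nearly all Car3, at 108 to 261 FPKM. Neuron markers summed to at most 2.08 FPKM in adipose tissue and 6.49 FPKM in liver. Hepatocyte markers summed to 644 to 1561 FPKM in adipose tissue and at most 679 FPKM in hypothalamus. The adipose sum was nearly all Cyp2e1, at 603 to 1535 FPKM, while Alb was at most 41.8 FPKM there. In 1 liver column Alb, the gene of albumin, was at 1112 FPKM against a median of 36034. In 1 hypothalamic column Ttr, another gene of the hepatocyte list, was at 646 FPKM against a median of 4.01. Over the 6 hypothalamic columns Alb reached 60.3, Apoa1 10.8 and Cyp2e1 6.84 FPKM. The cause of the Ttr value was not tested. The FPKM of a column summed to 160586 to 203846 in adipose tissue, 226445 to 244404 in hypothalamus and 278793 to 316679 in liver. No 2 columns held identical values. An exact 0 in these tables may be a failed estimate: Gapdh was listed at 0 in all 6 adipose columns and Eef1a1 in all 6 columns of hypothalamus and of liver. Of the genes that reached 1 FPKM in some column of a tissue, 16.1% were listed at 0 in another column in adipose tissue, 3.97% in hypothalamus and 8.68% in liver. A gene is therefore described as listed at 0, and no fold is given against a tissue with such columns. The depth behind each column is unknown.

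Of the 10 genes, 7 had a promoter window in the RefSeq table of the build GRCm38.p6, 250 bases before to 50 bases after the start of the gene. The genes without one were Csf1r, Tmem119 and Lyve1. The windows of Clec4f and Cd5l, high in liver, Cx3cr1 and P2ry12, high in hypothalamus, and Mrc1, high in adipose tissue and liver, are shown because these genes carry the tissue patterns described below. The Clec4f window is chr6:83656067-83656366 on the minus strand. The Cd5l window is chr3:87357631-87357930 on the plus strand. The Cx3cr1 window is chr9:120068247-120068546 on the minus strand. The P2ry12 window is chr3:59262936-59263235 on the minus strand. The Mrc1 window is chr2:14229164-14229463 on the plus strand. Each is written 5′ to 3′ on the strand of its gene, and capitals mark matches to GAGGAAG, a core letter string of the binding motif of PU.1 (the myeloid factor encoded by Spi1), read on either strand.
Clec4f: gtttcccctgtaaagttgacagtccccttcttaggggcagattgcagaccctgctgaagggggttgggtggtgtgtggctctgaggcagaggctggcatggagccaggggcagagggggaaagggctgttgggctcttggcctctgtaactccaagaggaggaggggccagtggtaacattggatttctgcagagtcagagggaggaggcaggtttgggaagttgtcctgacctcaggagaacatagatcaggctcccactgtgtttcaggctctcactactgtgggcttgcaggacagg
Cd5l: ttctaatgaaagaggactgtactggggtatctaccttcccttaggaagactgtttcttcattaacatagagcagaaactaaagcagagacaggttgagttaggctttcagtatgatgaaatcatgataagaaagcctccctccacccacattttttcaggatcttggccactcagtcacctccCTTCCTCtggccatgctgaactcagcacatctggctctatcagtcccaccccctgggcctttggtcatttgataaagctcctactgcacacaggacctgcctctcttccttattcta
Cx3cr1: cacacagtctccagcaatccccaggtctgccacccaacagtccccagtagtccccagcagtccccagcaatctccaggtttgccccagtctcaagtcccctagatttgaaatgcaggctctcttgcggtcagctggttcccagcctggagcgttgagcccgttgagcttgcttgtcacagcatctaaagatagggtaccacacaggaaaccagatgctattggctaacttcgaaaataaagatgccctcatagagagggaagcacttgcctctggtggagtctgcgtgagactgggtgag
P2ry12: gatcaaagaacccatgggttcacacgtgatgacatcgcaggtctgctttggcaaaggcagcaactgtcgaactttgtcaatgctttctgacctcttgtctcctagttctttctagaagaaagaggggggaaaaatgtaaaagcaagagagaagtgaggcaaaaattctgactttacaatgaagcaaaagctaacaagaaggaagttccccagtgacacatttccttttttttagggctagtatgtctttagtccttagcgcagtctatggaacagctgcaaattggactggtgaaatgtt
Mrc1: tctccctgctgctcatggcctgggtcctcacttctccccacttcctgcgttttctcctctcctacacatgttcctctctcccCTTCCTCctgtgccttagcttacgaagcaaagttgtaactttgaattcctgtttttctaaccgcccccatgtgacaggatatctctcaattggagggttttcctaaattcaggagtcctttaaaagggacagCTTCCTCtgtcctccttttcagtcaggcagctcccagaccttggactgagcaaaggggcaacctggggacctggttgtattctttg

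The string was found on the other strand, as CTTCCTC, once in Cd5l at position -67 from the start and in Mrc1 at positions -168 and -36. It was not in the other 5 windows, and 13.6% of all 32851 windows hold it. The AP-1 string TGACTCA, searched on both strands, was in none of the 7 windows and in 5.20% of all windows. The windows of Clec4f and Cd5l held no CpG, those of Vsig4 and Mrc1 held 3, that of P2ry12 held 4 and those of Cx3cr1 and Timd4 held 5. The median of all windows was 7. The deposited leading model of Clec4f, Cd5l, Timd4 and Vsig4 in liver, Cx3cr1 in hypothalamus and Mrc1 in adipose tissue began at the RefSeq gene start, 250 bases into the window, while that of P2ry12 in hypothalamus did not. These matches describe the letters of the windows only.

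Each tissue showed its own set of the 10 genes. In hypothalamus Cx3cr1, P2ry12 and Tmem119 were above 0 in all 6 columns, Mrc1 and Lyve1 were above 0 in 1 column each, and Csf1r, Clec4f, Vsig4, Cd5l and Timd4 were listed at 0 throughout. In liver Cd5l, Clec4f, Vsig4, Mrc1, Lyve1 and Timd4 were above 0 in all 6 columns. In adipose tissue this held for Mrc1, Lyve1, Tmem119 and Cx3cr1. In bulk tissue fewer cells of a type and less RNA per cell cannot be told apart.

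**Figure D1:**
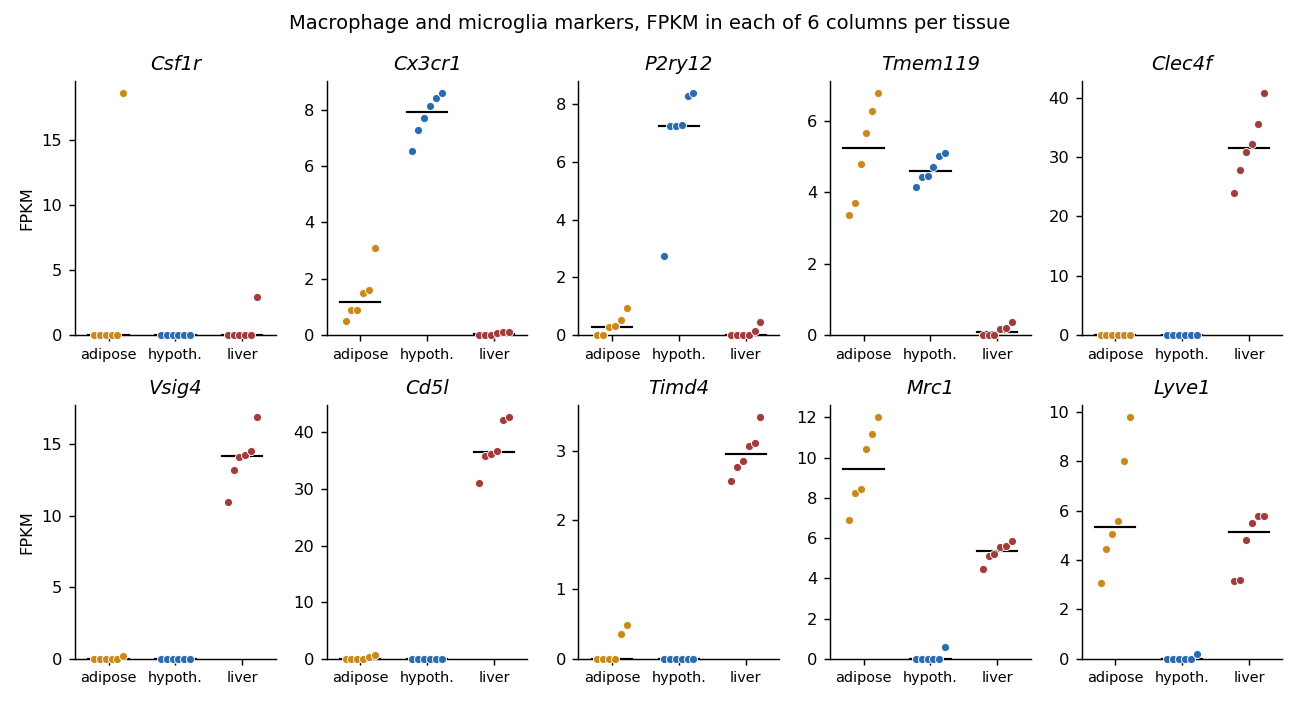
FPKM of each of the 10 genes (vertical axis, own scale per panel) in the 6 columns of adipose tissue, hypothalamus and liver; a point is 1 column and a black line the median of 6. Clec4f, Vsig4, Cd5l and Timd4 are high in liver only, Cx3cr1 and P2ry12 are highest in hypothalamus, Tmem119 is shared by adipose tissue and hypothalamus, and Mrc1 and Lyve1 by adipose tissue and liver; Csf1r is above 0 in 2 of 18 columns.

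Cx3cr1 (chromosome 9, 120048683 to 120068296, minus strand, mm10), the receptor for the chemokine fractalkine, was at 6.52, 7.27, 7.70, 8.14, 8.43 and 8.59 FPKM in hypothalamus, 7.78 ± 0.781 (SD, n = 6). In adipose tissue it was at 0.504, 0.875, 0.907, 1.48, 1.59 and 3.09 FPKM, 1.41 ± 0.920 (SD, n = 6). In liver it was listed at 0 in 3 columns and was at 0.0798, 0.0949 and 0.127 FPKM in the others. No hypothalamic column overlapped an adipose column, and no adipose column overlapped a liver column. The median in hypothalamus was 6.64 times that in adipose tissue. On log2(FPKM + 1) hypothalamus exceeded adipose tissue by 1.94 (SE 0.17, limma, Benjamini-Hochberg adjusted p = 7.95e-09) and liver by 3.06 (SE 0.17, limma, adjusted p = 7.74e-12).

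P2ry12 (chromosome 3, 59216259 to 59263026 in hypothalamus, minus strand), through which microglia sense released nucleotides, was at 2.74, 7.24, 7.24, 7.28, 8.27 and 8.39 FPKM in hypothalamus. The lowest column stood apart from the other 5, while Cx3cr1 in that same column was 8.43 FPKM and Tmem119 4.43 FPKM. In adipose tissue P2ry12 was listed at 0 in 2 columns and was at 0.275, 0.316, 0.510 and 0.941 FPKM in the others. In liver it was listed at 0 in 4 columns and was at 0.132 and 0.439 FPKM in the other pair. Every hypothalamic column lay above every column of the other tissues. The hypothalamic excess on log2(FPKM + 1) was 2.53 over adipose tissue (SE 0.21, limma, adjusted p = 3.50e-09) and 2.80 over liver (SE 0.21, limma, adjusted p = 6.41e-10). P2ry12 lies inside Med12l, a subunit gene of the Mediator complex on the opposite strand. Med12l was listed at 0 in 4 hypothalamic columns and reached 3.49 FPKM, and whether reads were counted by strand is not given in the sources used here. The sum rests on 3 models in hypothalamus, whose leading model carried between 12.0% and 93.3% of it. In 1 column another model carried most of the sum, so only the sum is compared.

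Tmem119 (chromosome 5, 113793729 to 113800439 in hypothalamus, minus strand), a transmembrane protein known in the brain as a microglial marker, had overlapping levels in adipose tissue and hypothalamus. In hypothalamus it was at 4.14, 4.43, 4.47, 4.71, 5.02 and 5.10 FPKM, 4.65 ± 0.371 (SD, n = 6). In adipose tissue it was at 3.36, 3.70, 4.80, 5.66, 6.28 and 6.78 FPKM, 5.10 ± 1.39 (SD, n = 6). The adipose columns spread to both sides of all 6 hypothalamic columns. The difference on log2(FPKM + 1), hypothalamus minus adipose tissue, was -0.08 (95% confidence interval -0.36 to 0.20, limma, adjusted p = 0.601). With each column divided by its median ratio to the other columns it was -0.56 (limma, adjusted p = 0.000887), below the size of 1 asked of a call. In liver Tmem119 was listed at 0 in 3 columns and was at 0.176, 0.192 and 0.380 FPKM in the others, below every column of both other tissues. Tmem119 is also known from bone-forming and other mesenchymal cells in mice, and their part in the adipose level was not tested.

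**Figure D2:**
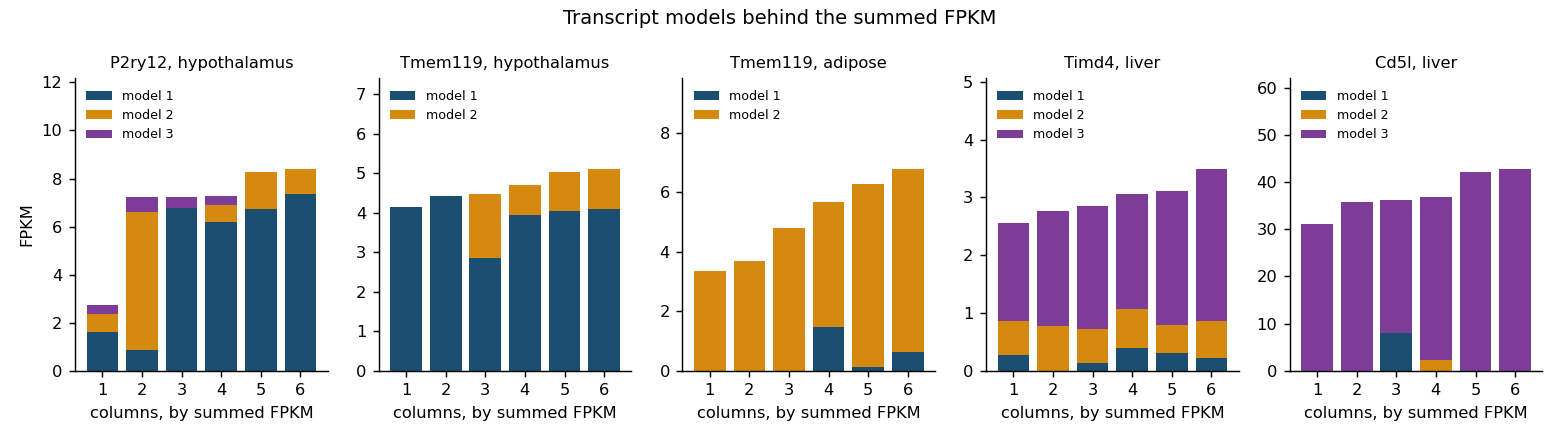
FPKM of each deposited transcript model (stacked bars, vertical axis in FPKM) for 5 pairs of gene and tissue with several models; columns are ordered by their sum from left to right and models are numbered by start position within a tissue, so a number does not mark the same model in different tissues. In P2ry12 the second-lowest column is carried by another model than the columns beside it, while Timd4 in liver keeps 1 leading model at 65.2% to 75.3% of the sum in all 6 columns.

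Among the liver genes, Cd5l (chromosome 3, 87327091 to 87371075 in liver, plus strand), a secreted protein that binds lipids and circulating IgM, was the highest. It was at 31.1, 35.8, 36.2, 36.8, 42.2 and 42.7 FPKM, 37.5 ± 4.37 (SD, n = 6). Clec4f (chromosome 6, 83644542 to 83656116, minus strand), a galactose-binding lectin, was at 23.9, 27.9, 30.8, 32.1, 35.6 and 40.7 FPKM, 31.8 ± 5.88 (SD, n = 6). Cd5l was above Clec4f in each of the 6 columns, though their ranges overlapped. Vsig4 (chromosome X, 96247203 to 96293438, minus strand), which binds complement C3b, was at 11.0, 13.2, 14.1, 14.2, 14.5 and 16.9 FPKM, 14.0 ± 1.92 (SD, n = 6). Timd4 (chromosome 11, 46810783 to 46844400 in liver, plus strand), which binds phosphatidylserine on dying cells, was the lowest of the 4 at 2.56, 2.77, 2.85, 3.07, 3.12 and 3.49 FPKM, 2.98 ± 0.322 (SD, n = 6). The ranges of Clec4f, Vsig4 and Timd4 did not overlap one another. The median level of Cd5l lay above the medians of 95.9% of all genes in liver, and that of Timd4 above 75.8%.

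Outside liver these 4 genes were listed at or near 0, and a listed 0 may be a failed estimate. All 4 were listed at 0 in all 6 hypothalamic columns, and Clec4f also in all 6 adipose columns. Vsig4 was at 0.188 FPKM in 1 adipose column. Cd5l was at 0.348 and 0.694 FPKM in 2 adipose columns and Timd4 at 0.352 and 0.491 FPKM in 2. Every liver column exceeded every other column for each of the 4 genes. The excess of liver over hypothalamus ranged from 1.99 for Timd4 (SE 0.10) to 5.26 for Cd5l (SE 0.12) on log2(FPKM + 1), with limma adjusted p of 1.83e-12 and 1.60e-17. These fitted sizes depend on the pseudocount of 1, since the other tissues are mostly listed at 0.

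The 4 Kupffer cell genes shared their extremes within liver. One liver column was the lowest of 6 for Clec4f, Vsig4, Cd5l and Timd4 alike, and another was the highest for all 4 and for Mrc1. The complement genes C1qa, C1qb and C1qc, made by macrophages of many tissues, were at 20.9, 22.1 and 18.1 FPKM in the first of these columns. In the second they were at 34.9, 39.4 and 38.3 FPKM. The FPKM sums of these columns were 290022 and 297476. The highest Clec4f value was 1.70 times the lowest before division by the mean of the 3 C1q genes of the same column and 1.24 times after it. For Vsig4 the 2 ratios were 1.54 and 1.27, for Cd5l 1.37 and 1.34 and for Timd4 1.36 and 1.35. The C1q mean was chosen after values were seen and is used as a description only.

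Mrc1 (chromosome 2, 14229414 to 14332023 in adipose tissue, plus strand), a mannose receptor that takes up glycoproteins, was the highest of the 10 genes in adipose tissue. It was at 6.92, 8.24, 8.43, 10.4, 11.2 and 12.0 FPKM there, 9.54 ± 1.97 (SD, n = 6). In liver it was at 4.44, 5.11, 5.20, 5.54, 5.62 and 5.84 FPKM, 5.29 ± 0.497 (SD, n = 6). In hypothalamus it was at 0.601 FPKM in 1 column and listed at 0 in 5. All adipose columns lay above all liver columns, and all liver columns above all hypothalamic columns. Adipose tissue exceeded liver by 0.73 on log2(FPKM + 1) (SE 0.13, limma, adjusted p = 0.000136), a difference under the size of 1 asked of a call, and the median in adipose tissue was 1.75 times that in liver. Over 31 alternative settings the difference stayed positive and its limma adjusted p ranged from 1.48e-05 to 0.386. It missed the threshold with pseudocounts of 0.1 and 0.01, and it passed the size of 1 at 1.48 with columns rescaled to the same sum. Adipose tissue exceeded hypothalamus by 3.26 (SE 0.13, limma, adjusted p = 1.22e-13). The microRNA gene Mir511 lies within Mrc1 and reached 0.473 FPKM in adipose tissue, and it was listed at 0 in liver and hypothalamus.

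Lyve1 (chromosome 7, 110850607 to 110862953, minus strand), which binds hyaluronan of the tissue matrix, had overlapping levels in adipose tissue and liver. In adipose tissue it was at 3.08, 4.46, 5.04, 5.60, 8.03 and 9.80 FPKM, 6.00 ± 2.47 (SD, n = 6). In liver it was at 3.17, 3.21, 4.80, 5.48, 5.77 and 5.79 FPKM, 4.71 ± 1.23 (SD, n = 6). The ranges overlapped, and the difference of 0.25 on log2(FPKM + 1) had a 95% confidence interval of -0.16 to 0.67 (limma, adjusted p = 0.286). With columns rescaled to the same sum it was 0.96 (limma, adjusted p = 0.00373), still under the size of 1. In hypothalamus Lyve1 was at 0.208 FPKM in 1 column and listed at 0 in 5. Adipose tissue exceeded hypothalamus by 2.69 (SE 0.20, limma, adjusted p = 6.05e-10).

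Markers of endothelium, which also makes Mrc1 and Lyve1, had several patterns between the tissues. Mmrn1, a marker of lymphatic endothelium, was at 1.08 to 8.94 FPKM in adipose tissue and listed at 0 in all columns of the other tissues. Other lymphatic markers did not share that pattern. Prox1, which hepatocytes also make, was listed at 0 in all adipose columns and had medians of 10.7 FPKM in liver and 5.70 FPKM in hypothalamus. Flt4 had medians of 1.92 FPKM in adipose tissue and 1.41 FPKM in liver and was not called between them, and Pdpn had medians of 3.56 FPKM in adipose tissue and 2.65 FPKM in hypothalamus and was not called between those. Stab1, a scavenger receptor of sinusoidal endothelium and of macrophages, had a median of 9.11 FPKM in adipose tissue, 2.27 FPKM in liver and 0.732 FPKM in hypothalamus. Stab2 and Clec4g, which mark sinusoidal endothelium, had medians of 1.98 and 18.7 FPKM in liver and were listed at 0 in all adipose columns. Over the 10 sinusoidal and lymphatic markers in the tables the summed FPKM was 17.2 to 36.5 in adipose tissue, 57.6 to 82.2 in liver and 9.77 to 16.0 in hypothalamus. The 4 general endothelial markers tested (Pecam1, Cdh5, Kdr and Emcn) were all called higher in adipose tissue than in liver and hypothalamus, against 20.5% and 12.4% of all genes. None was called between hypothalamus and liver, where 52.0% of all genes were called. With columns rescaled to the same sum 2 of the 4 were called higher in hypothalamus than in liver, against 10548 of 17162 genes called in either direction. The summed FPKM of that list was 55.0 to 246 in adipose tissue, 9.12 to 16.9 in liver and at most 15.7 in hypothalamus (median 13.9), and the hypothalamic range lay within that of liver. The part of endothelium in the levels of Mrc1 and Lyve1 was not tested.

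Csf1r (chromosome 18, 61096870 to 61131250 in adipose tissue, plus strand), the receptor that all these cells carry, was listed at 0 in 16 of 18 columns. It was at 18.6 FPKM in 1 adipose column, the one in which Cx3cr1, Tmem119 and Mrc1 were also highest, and at 2.93 FPKM in 1 liver column. The C1q genes were above 0 in all 18 columns, at or above 13.5 FPKM. The zeros of Csf1r thus stood beside macrophage genes that were measured in the same columns, and no level or difference between tissues is drawn from Csf1r.

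Counted over the 10 genes, 9 were called different between hypothalamus and liver, 3 higher in hypothalamus and 6 higher in liver; Csf1r was the exception. A call asked for a limma adjusted p under 0.05 and a difference of at least 1 on log2(FPKM + 1). Of all genes tested, 52.0% were called in this comparison, 40.8% higher in hypothalamus and 11.1% higher in liver. The median difference of the 10 genes was -2.21, against 0.67 for all genes tested. Between adipose tissue and liver 6 of the 10 were called, Cx3cr1 (by 1.12) and Tmem119 (by 2.42) higher in adipose tissue and the 4 Kupffer cell genes higher in liver. Of all genes tested, 31.2% were called here, 20.5% higher in adipose tissue and 10.8% higher in liver. The median difference was 0.26 for the 10 genes and 0.22 for all. Between hypothalamus and adipose tissue 4 of 10 were called, Cx3cr1 and P2ry12 higher in hypothalamus and Mrc1 and Lyve1 higher in adipose tissue, against 44.7% of all genes (32.3% higher in hypothalamus and 12.4% higher in adipose tissue), a share close to that of the 10. The median difference here was -0.12 for the 10 genes and 0.42 for all.

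The called genes were also those without overlap between the 2 tissues and with the smallest p that an exact two-sided permutation test of 6 against 6 columns can give, 0.00216. Mrc1 between adipose tissue and liver also had that p, without overlap and without being called. Of all genes tested, 67.5% had no overlap between hypothalamus and liver, 40.6% between adipose tissue and liver and 57.3% between hypothalamus and adipose tissue. The 3 comparisons share columns, so their counts are not independent. Leaving out each column in turn changed 1 of these calls: without the adipose column at 3.09 FPKM, Cx3cr1 exceeded liver by 0.95 (limma, adjusted p = 2.37e-06), just under the size of 1. The other scalings moved the split of all calls. In hypothalamus against liver 78.6% of calls were higher in hypothalamus, and 63.8% after division by the median ratio. In adipose tissue against liver 65.5% were higher in adipose tissue, and 83.4% after rescaling to the same sum. In hypothalamus against adipose tissue 72.2% were higher in hypothalamus, 56.7% after division by the median ratio and 61.0% after rescaling. No difference of the 10 genes that was called changed direction under either scaling.

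**Figure D3:**
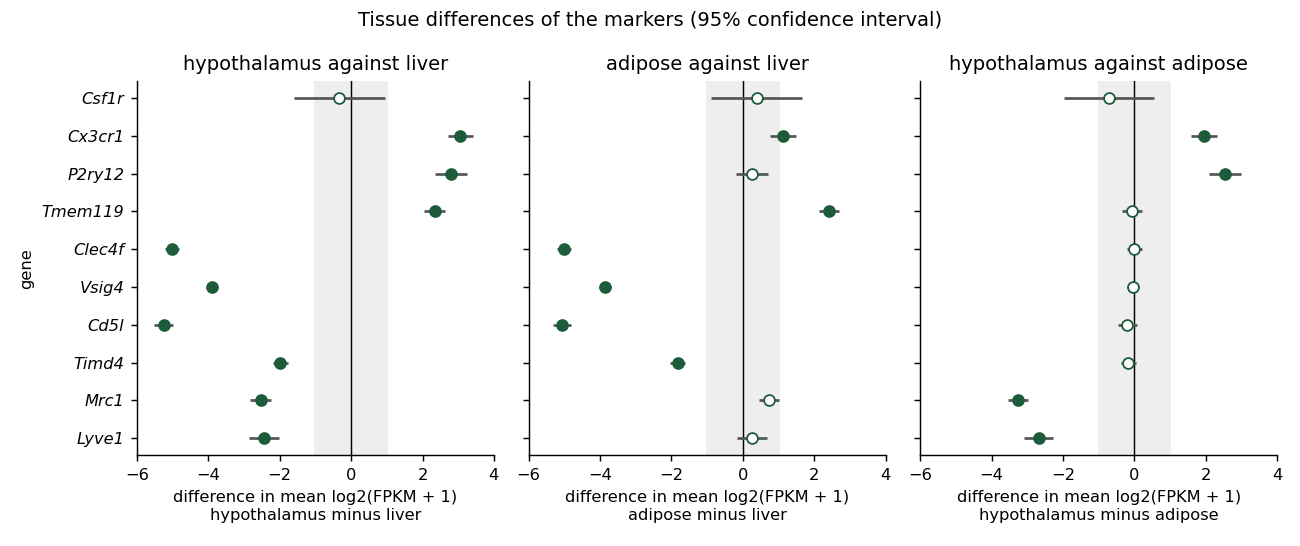
Difference in mean log2(FPKM + 1) of the 10 genes (horizontal axis, first tissue minus second) for the 3 tissue pairs, with 95% confidence intervals from limma; filled points were called, open points were not, and the grey band spans differences under 1. The 4 Kupffer cell genes lie at -1.82 or below against liver in both panels that include liver, Tmem119 sits at -0.08 between hypothalamus and adipose tissue, and Csf1r has the widest interval.

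Of 19 other genes, known from macrophages of many organs, 5 were called between hypothalamus and liver, 3 between adipose tissue and liver and 3 between hypothalamus and adipose tissue. The shares of all genes called were 52.0%, 31.2% and 44.7%. C1qa, C1qb and C1qc, the subunits of the complement initiator C1q, had medians of 27.2, 20.1 and 22.3 FPKM in adipose tissue. Their medians were 20.2, 23.4 and 20.8 FPKM in hypothalamus and 27.3, 30.6 and 28.3 FPKM in liver. Ctss, a lysosomal protease, had medians of 11.4, 30.2 and 17.0 FPKM in adipose tissue, hypothalamus and liver, with 1 hypothalamic column at 0.950. The summed FPKM of the 19 genes was 107 to 182 in adipose tissue, 112 to 147 in hypothalamus and 140 to 219 in liver, and the 3 ranges overlapped. After division by the median ratio 12 of the 19 were called between hypothalamus and liver, 11 of them higher in liver, against 7120 of 15784 genes in all. Between hypothalamus and adipose tissue 6 were then called, all higher in adipose tissue, against 6240 of 15784 genes. After rescaling to the same sum, 4 were higher in adipose tissue than in liver and 1 lower, against 8432 of 17162 genes. The counts thus depend on the scaling, most for hypothalamus against liver. Aif1, a gene of microglia and other macrophages, was listed at 0 in 15 of 18 columns, a further marker with zeros beside measured C1q.

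Relative to the C1q genes of the same column, Cx3cr1, Tmem119 and Mrc1 kept the tissue order they had in FPKM or overlapped as before. Cx3cr1 was at 0.341 to 0.406 of the C1q mean in hypothalamus and 0.0320 to 0.108 in adipose tissue. Tmem119 was at 0.205 to 0.235 in hypothalamus and 0.169 to 0.250 in adipose tissue, again overlapping. Mrc1 was at 0.377 to 0.439 in adipose tissue and 0.155 to 0.276 in liver, without overlap. Its highest adipose value was 1.74 times the lowest in FPKM and 1.17 times the lowest as a ratio to C1q. The ratio of Lyve1 ran from 0.151 to 0.510 in adipose tissue, a spread of 3.39 times against 3.18 times in FPKM. In liver the highest Mrc1 value was 1.31 times the lowest in FPKM and 1.77 times the lowest as a ratio to C1q, while the spread of each of the 4 Kupffer cell genes was smaller as a ratio.

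**Figure D4:**
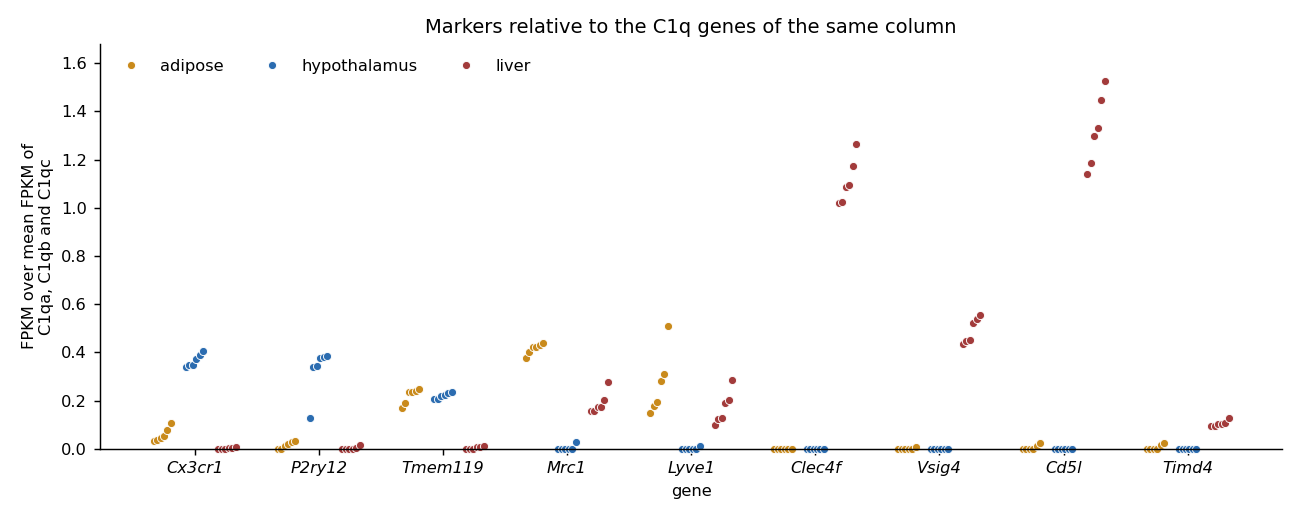
FPKM of 9 genes over the mean FPKM of C1qa, C1qb and C1qc of the same column (vertical axis, a ratio without unit, starting at 0), by tissue; a point is 1 column. Cd5l and Clec4f in liver are above 1, Mrc1 in adipose tissue is tightly grouped at 0.377 to 0.439, and Lyve1 in adipose tissue is spread from 0.151 to 0.510.

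Further genes of each macrophage type, chosen like the 10 with earlier results of these data known, were read against the 10. Of 10 other microglia genes, 7 were higher in hypothalamus than in liver and 1 lower (Sall1), and 6 were higher in hypothalamus than in adipose tissue and 1 lower (Olfml3). Of all genes, 40.8% were called higher in hypothalamus than in liver and 32.3% higher than in adipose tissue. After division by the median ratio 9 were tested, with 4 higher in hypothalamus than in adipose tissue and 1 lower. Against liver 6 of the 9 were then higher and 1 lower, and 9 of 10 after rescaling to the same sum. Between adipose tissue and liver 4 of the 10 were higher in adipose tissue and 1 lower, against 20.5% and 10.8% of all genes. Fcrls, an Fc receptor-like gene of mouse microglia, had medians of 5.71 FPKM in hypothalamus and 1.96 FPKM in adipose tissue and was listed at 0 in all liver columns. Selplg, the P-selectin ligand, had medians of 5.41 FPKM in hypothalamus, 0.974 FPKM in adipose tissue and 0.695 FPKM in liver. Olfml3, a secreted matrix protein, was highest in adipose tissue with a median of 13.9 FPKM against 5.07 FPKM in hypothalamus. Among these named genes Olfml3, like Tmem119, had adipose columns at or above the lowest hypothalamic column, while Fcrls and Selplg, like Cx3cr1 and P2ry12, had none.

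Of 7 other Kupffer cell genes, 5 were higher in liver than in hypothalamus and 4 higher than in adipose tissue, and none was called lower in liver. Of all genes, 11.1% and 10.8% were called higher in liver in these comparisons. Marco, a scavenger receptor, was at 3.73 to 9.84 FPKM in liver and listed at 0 in every other column. Slc40a1, the iron exporter ferroportin, had medians of 31.3 FPKM in liver, 5.52 FPKM in adipose tissue and 3.30 FPKM in hypothalamus. Fcna, the soluble lectin ficolin A, had medians of 18.0 FPKM in liver and 8.85 FPKM in adipose tissue. It was thus not listed near 0 in adipose tissue as Clec4f, Vsig4, Cd5l and Timd4 were. Nr1h3, which encodes the nuclear receptor LXR alpha and is also active in hepatocytes and adipocytes, had medians of 22.0 and 13.7 FPKM in liver and adipose tissue and was not called between them.

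Most genes of perivascular and connective tissue macrophages were highest in adipose tissue, as Mrc1 was. Of 12 such genes, 9 were higher in adipose tissue than in liver and 1 lower (Folr2), and 11 were higher in adipose tissue than in hypothalamus. The shares of all genes called higher in adipose tissue were 20.5% and 12.4%. Retnla, a secreted protein of alternatively activated mouse macrophages, was at 22.4 to 62.5 FPKM in adipose tissue and listed at 0 in all other columns. F13a1, coagulation factor XIII subunit A, had a median of 13.2 FPKM in adipose tissue and was listed at 0 in all liver columns. Pf4, platelet factor 4, had medians of 8.21 FPKM in adipose tissue, 1.01 FPKM in liver and 0.419 FPKM in hypothalamus. Folr2, folate receptor beta, had medians of 5.93 FPKM in liver and 1.42 FPKM in adipose tissue, with 1 adipose column listed at 0.

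**Figure D5:**
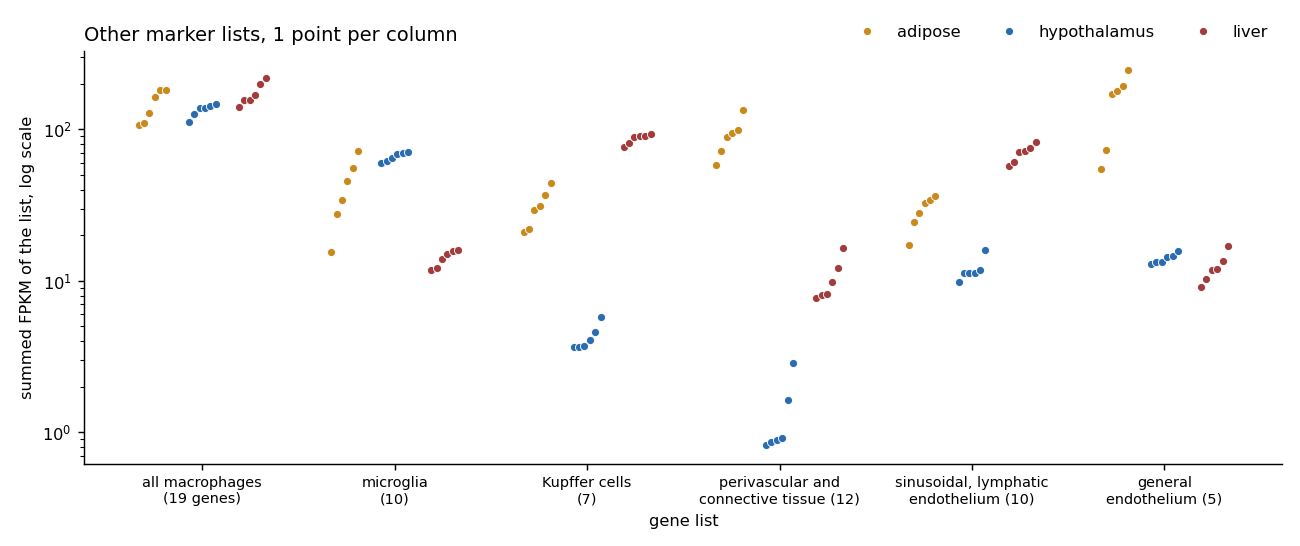
Summed FPKM (vertical axis, log scale) of 6 gene lists in the 6 columns of each tissue; a point is 1 column and the number of genes in the tables is given under each list. The 19 genes of all macrophages overlap between the tissues, the Kupffer cell list is highest in liver, the perivascular and connective tissue list and the general endothelial list are highest in adipose tissue, and the microglia list of hypothalamus (59.7 to 70.5) lies within the top of the adipose range (15.5 to 71.7).

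Of 9 monocyte and recruited macrophage genes, 6 passed the filter, and 3 of these were higher in adipose tissue than in liver, 1 was lower and 2 were not called, where 20.5% of all genes were called higher and 10.8% lower. Ccr2, the receptor by which monocytes enter tissue, had a median of 2.33 FPKM in adipose tissue and 0.120 FPKM in liver and was listed at 0 in hypothalamus. Cd9, a tetraspanin also present in many other cells, had medians of 42.4 FPKM in hypothalamus, 23.1 FPKM in adipose tissue and 9.69 FPKM in liver. Spp1, osteopontin, had a median of 17.9 FPKM in liver and 1.65 FPKM in adipose tissue. Plac8 had medians of 6.55 and 4.55 FPKM in liver and adipose tissue, and Ly6c2 was listed at 0 in 3 adipose columns and reached 14.3 FPKM in another. Lymphocyte markers summed to at most 1.42 FPKM in any column, and none of the 3 that passed the filter was called. With columns rescaled to the same sum 1 of the 3 was called, higher in liver than in hypothalamus. Of 6 neutrophil and myeloid precursor markers tested, Ltf was the only one called, higher in adipose tissue than in liver and hypothalamus. The shares of all genes called so were 20.5% and 12.4%. Ltf was listed at 0 in 3 adipose columns and reached 29.0 FPKM in 1. After rescaling to the same sum, 4 of the 6 were higher in adipose tissue than in hypothalamus and 2 higher than in liver. In that setting 1 was higher in liver than in hypothalamus. All genes called then numbered 8732, 8432 and 10548 of 17162.

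The ligands of Cx3cr1 and Csf1r had their highest medians in hypothalamus. Cx3cl1, fractalkine, the ligand of Cx3cr1, was at 80.8 to 123 FPKM in hypothalamus, 0.778 to 5.09 FPKM in adipose tissue and 0 to 0.271 FPKM in liver. The receptor and its ligand thus had the same order of tissues. Csf1 and Il34, the ligands of Csf1r, had medians of 6.85 and 7.33 FPKM in hypothalamus, 2.82 and 2.87 FPKM in adipose tissue and 0.985 and 0.609 FPKM in liver. Both were called higher in hypothalamus than in liver, with Il34 higher by 2.28 on log2(FPKM + 1) (SE 0.13, limma, adjusted p = 7.65e-12). Of all genes, 40.8% were called so. Against adipose tissue Il34 was called higher in hypothalamus (1.02, SE 0.13) and Csf1 was not called (0.94, SE 0.19). Of all genes, 32.3% were called higher there. Of the list of 4 with Cx3cl1 and Tgfb1, 2 were called higher in hypothalamus than in adipose tissue, and 1 under either other scaling. Tgfb1, which encodes a growth factor that maintains microglia in mice and is no ligand of the 10 genes, was higher in adipose tissue than in hypothalamus by 1.14 (SE 0.15, limma, adjusted p = 1.61e-06), with medians of 5.04 and 1.88 FPKM.

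Other genes followed each of the 10 across the 18 columns. Pearson's r on log2(FPKM + 1) was computed over the 18 columns with 11766 genes of at least 1 FPKM on average. The columns of a tissue share that tissue, so r chiefly reflects the 3 tissue levels and is given as a description. Cx3cr1 was most like Endod1 (r = 0.995), Itm2c (0.994) and Dpy19l3 (0.994), and Itm2c had a median of 282 FPKM in hypothalamus. P2ry12 was most like Xkr4 (0.979), Agpat5 (0.977) and Kcnip4 (0.976). Tmem119 was most like Fam102b (0.987), Tshz2 (0.986) and Necap2 (0.985), all with similar medians in adipose tissue and hypothalamus. The Kupffer cell genes were most like genes high in liver, Spp2 for Clec4f (0.9997), Proz for Vsig4 (0.999) and Cd5l (0.998) and Apol9b for Timd4 (0.993). Mrc1 was most like Fcgrt (0.987), Cped1 (0.986) and B4galt1 (0.985), and Lyve1 like Man2a1 (0.974), Antxr2 (0.973) and Gata6 (0.970). For Csf1r the likeness to Adam28 and Cuzd1 (both 0.904) rested on 1 adipose column.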

How the data were processed

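Poly-A libraries of 18 samples were sequenced on a HiSeq2500, per the labels' protocols. The submitters' processing notes name HISAT 0.1.6, StringTie 1.0.4 and the build mm10. The annotation and any use of strand are not given in the sources used here. Per the file headers, the authors deposited FPKM of transcript models in 6 columns per tissue, normalised for length and depth. Of the low values of a column, 28.4% to 75.8% lay within 0.1 of a whole multiple of an estimated step, so whole reads were not recovered, the depth is unknown and no count test was used.

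FPKM was summed over the models of a gene name (Python 3.11.15, pandas 2.3.3). Cells that did not hold a number, 9 to 13 per tissue and none in the 10 genes, were treated as missing, and 6 names were left out. The number of columns of no sample or group was 0. limma 3.58.1 in R 4.3.3 (trend and robust moderation) was fitted to log2(FPKM + 1) of all 18 columns, and p-values were adjusted by Benjamini and Hochberg over 15840 genes. On simulated data for hypothalamus against liver, with 15840 genes, changes of 1.5 and 3 (log2) were recovered in 97% and 100% of cases. All simulated columns were drawn as normal values from the liver means and the liver spread. Changes were added only to genes with a liver mean above 1 on log2(FPKM + 1). The rates therefore do not cover genes near 0 in liver, such as Cx3cr1, P2ry12 and Tmem119. The limma fit was compared with alternative settings: other pseudocounts, filters, scalings, gene values and moderation, an exact permutation test and each column left out. Leaving out genes that were at 0 in 1 column and at or above 1 FPKM in another of the tissue was added after seeing the data.

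All 10 genes were described whatever their values. From each further list, up to 4 genes of highest mean FPKM were named, except 1 that is not reported here, and the few others named (Ccr2, Mmrn1, Stab2, Flt4, Pdpn, Sall1, Aif1, Ltf) were chosen after their values were seen. For each of the 10, up to 3 genes with the highest r were taken, leaving out clone-like names. Adgre1 was found under its older name Emr1, and Ccl21a and Ly6g were not found by name. The members and lists were chosen with earlier results of these data known. Positions are counted from 1, as deposited.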

Additional observations from a re-analysis of the deposited data

Results flagged for a closer look

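In 24 groups of 6 columns that held any value above 0, the highest or lowest column was set against the range of its group, and 7 columns stood apart by Dixon's 95% criterion for 6 values. Chance gives about 1 in 20 groups of normally distributed values. That rate does not apply to 6 of the 7 groups, which are mostly listed at 0, and a single column above 0 stands apart by construction. Csf1r at 18.6 FPKM in adipose tissue and at 2.93 FPKM in liver were single columns above 0. Vsig4 at 0.188 FPKM in adipose tissue, Mrc1 at 0.601 FPKM in hypothalamus and Lyve1 at 0.208 FPKM in hypothalamus were likewise the only columns above 0 in their groups. P2ry12 at 0.439 FPKM in liver was the higher of 2 columns above 0. P2ry12 at 2.74 FPKM in hypothalamus was the only low column among those found, and the other 5 columns were at 7.24 to 8.39 FPKM.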

How the results depend on the processing

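The calls of the 10 genes kept their direction in every setting run, and 925 of 927 of their differences stayed on the same side of the threshold. The exceptions, Mrc1 with columns rescaled to the same sum and Cx3cr1 without 1 adipose column, are given above. The number of all genes called between adipose tissue and liver rose from 4950 to 7470 with a pseudocount of 0.1, 7481 with 0.01 and 8432 with columns rescaled to the same sum; the cause was not tested. With each column left out in turn, 8174 to 8260 genes were called between hypothalamus and liver, 4869 to 5102 between adipose tissue and liver and 7045 to 7145 between hypothalamus and adipose tissue. Of the 10 genes, 9, 5 to 6 and 4 were called in these comparisons. The median difference of all genes tested, 0.67, 0.22 and 0.42 in that order, was 1.08, 0.76 and 0.21 after rescaling and 0.25, 0.15 and 0.03 after division by the median ratio. Without genes with unsteady zeros, 12948 genes were tested and the same 9, 6 and 4 of the genes were called. Of the median levels, 27 of 690 moved by more than the spread of the columns, 24 of them under the other scalings.

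No paired analysis was possible because the numbers in the column headings occur in no label, and nothing says what they mark; 4 of them recur in all 3 tissues, and hypothalamus and liver share all 6. The unknown depth and the exact zeros limit the low values most.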
